A study of Mus musculus with 15 samples.

Results

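The matrix metalloproteases (MMPs), the ADAM and ADAMTS proteases and the tissue inhibitors of metalloproteases (TIMPs) were described across mouse lungs and lung tumours. The set was given as 34 genes of these families, chosen by family membership. Each gene was read through probe sets whose annotation names that gene alone, and, where a gene had several, through the one with the highest mean log2(intensity + 16) over all 15 arrays. By this rule 30 of the 34 genes were measured, among 18193 genes in all. Mmp15, Mmp25, Mmp28 and Adamts2 had no probe set naming them alone in the annotation used, and have no values here.

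RNA from mouse lung of a mixed strain background was hybridised to single-colour Affymetrix expression arrays, with 3 arrays in each of the 4 groups described here. The study asked which genes differ between lung tumours and normal lung at a late stage, and which differ at an early stage, before tumours start. At 12 months, lung of wild type mice was compared with lung tumours of mice carrying, among the changes in their genotype, deleted Smad4 alleles. Smad4 joins the receptor-activated SMADs to pass on TGF-beta and BMP signals. At 7 months, lung of wild type mice was compared with lung of mice of that same mutant genotype. Per the labels, a tumour array held part of a single tumour and a lung array lung tissue. The labels do not name the cells in which the alleles were deleted. Every effect is that of the genotype as a whole. No treatment was given.

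MMPs are zinc-dependent enzymes that cut collagens, proteoglycans and other matrix proteins, either after secretion or, for the membrane types, at the cell surface. ADAM proteases sit in the plasma membrane, and several of them release the outer parts of growth factors, cytokines and receptors from the cell, which is called shedding. ADAMTS proteases are secreted and cut proteoglycans or procollagens. TIMPs bind to these enzymes and block them, and in lung the balance between enzyme and inhibitor bears on how matrix is kept, rebuilt or crossed by cells.

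Several MMP genes lie side by side on chromosome 9 and are textbook targets of the AP-1 factor, so the bases before their transcription starts are shown here. RefSeq promoter windows of build GRCm38.p6 were at hand for 23 of the 34 genes, some with more than 1 start, which gave 25 windows of 250 bases. The AP-1 motif TGANTCA, searched on both strands, was found in 4 of the 25 windows, and in 6.75% of all 32851 promoter windows of that length. The 4 were windows of Mmp3, Mmp7, Mmp10 and Mmp13. A second window of Mmp7, from another start, did not hold the motif. The last 100 bases before the start are printed 5′ to 3′ on the strand of the gene, which is the plus strand for all 4, at chr9:7445722-7445821 for Mmp3, chr9:7691990-7692089 for Mmp7, chr9:7502242-7502341 for Mmp10 and chr9:7272414-7272513 for Mmp13. The capitals mark the motif, which spans bases 46 to 40 before the start in Mmp3, 63 to 57 in Mmp7 and Mmp10, and 35 to 29 in Mmp13.
Mmp3: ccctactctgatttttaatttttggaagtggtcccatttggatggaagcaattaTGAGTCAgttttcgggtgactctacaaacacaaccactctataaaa
Mmp7: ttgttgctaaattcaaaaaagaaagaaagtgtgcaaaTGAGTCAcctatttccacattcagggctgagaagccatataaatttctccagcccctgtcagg
Mmp10: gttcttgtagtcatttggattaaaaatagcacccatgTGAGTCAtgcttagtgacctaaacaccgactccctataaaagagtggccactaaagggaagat
Mmp13: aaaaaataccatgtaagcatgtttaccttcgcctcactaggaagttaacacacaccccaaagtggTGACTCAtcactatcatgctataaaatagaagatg

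The genotype includes Smad4, whose protein binds the SMAD box, so the windows of Adam8, Timp4 and Mmp23, the 3 genes called higher at both ages, are printed with each CAGAC, or GTCTG for the other strand, in capitals. The windows are the 250 bases before the start, on the minus strand, at chr7:139992563-139992812 for Adam8, chr6:115252206-115252455 for Timp4 and chr4:155653291-155653540 for Mmp23. Mmp23 had a second window, at chr4:155653385-155653634, which holds 1 CAGAC and is not printed. Over both strands this motif was found in 10 of the 25 windows of the set and in 42.2% of all promoter windows, so its presence is common in any promoter. The ETS motif AGGAAG, searched in the same way, was found in 13 of the 25 windows and in 29.5% of all. A match to so short a motif is a description of letters and does not show that a factor bound there. The 3 genes were picked by their calls in these data, and Adamts8, called lower at both ages, had no window at hand.
Adam8: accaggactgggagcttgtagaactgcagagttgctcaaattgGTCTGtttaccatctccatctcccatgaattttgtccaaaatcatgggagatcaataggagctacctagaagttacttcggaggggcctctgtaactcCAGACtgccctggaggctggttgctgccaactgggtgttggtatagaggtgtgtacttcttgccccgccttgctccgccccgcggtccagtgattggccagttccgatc
Timp4: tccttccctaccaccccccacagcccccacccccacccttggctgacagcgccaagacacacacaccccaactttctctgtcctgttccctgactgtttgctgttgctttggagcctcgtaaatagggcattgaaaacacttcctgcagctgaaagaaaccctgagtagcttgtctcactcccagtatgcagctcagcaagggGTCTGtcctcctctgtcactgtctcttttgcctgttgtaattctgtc
Mmp23: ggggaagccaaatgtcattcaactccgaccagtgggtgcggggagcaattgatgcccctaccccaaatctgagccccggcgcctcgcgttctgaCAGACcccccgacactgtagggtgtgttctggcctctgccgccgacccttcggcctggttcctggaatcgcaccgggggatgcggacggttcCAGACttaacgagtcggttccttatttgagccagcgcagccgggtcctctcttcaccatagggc

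Facts of the whole series come first. Array medians lay between 90.9 and 99.5, no pair of arrays was identical, and arrays of a group correlated at 0.982 to 0.9957. At 12 months Smad4 averaged 3302 ± 364 on tumour arrays and 2819 ± 137 on wild type arrays, and 3292 ± 109 in mutant and 3220.4 ± 73.7 in wild type lung at 7 months (SD, n = 3), and neither difference was called, with adjusted p = 0.213 and 0.799. No label says whether this probe set reads the deleted exons, so the reading does not check the labels. Xist at 12 months, which is transcribed in female cells, was high in wild type arrays 1 and 3 (6786 and 6917) and low in wild type array 2 (69.8) and in all 3 tumours (64.1 to 237), while the Y-linked Eif2s3y ran the other way. At 7 months wild type array 3 showed Eif2s3y with Xist at 48.1, and the other 2 wild type arrays and all 3 mutant arrays showed both genes. The labels do not say whether an array held RNA of more than 1 animal, and p-values measure the spread between these arrays, which may be technical. The 18S ribosomal RNA control probe sets averaged 1700.1 ± 504 in tumours against 6381 ± 778 in wild type lung at 12 months, and 7199 ± 792 in mutant against 6953 ± 83.5 in wild type lung at 7 months (SD, n = 3). What set that difference was not tested.

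In tumours, 6 of the 30 genes were higher than in wild type lung of 12 months, 2 were lower and 22 were not called. The higher genes were the secreted protease Mmp3 (stromelysin-1), the membrane-tethered Mmp23, the inhibitors Timp1 and Timp4, the proteoglycan-cutting Adamts4 and the leukocyte-associated sheddase Adam8. The lower genes were Adamts8 and Adamts10. Calls were made with limma at an adjusted p below 0.05 over all 18193 genes, of which 9.23% were called higher and 6.02% lower in the same comparison. The median log2 difference of the 30 genes was -0.03 against 0.01 over all genes, and the median size of the difference, whatever its sign, was 0.36 against 0.19.

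At 7 months, 5 of the 30 genes were called higher in mutant lung, 1 was lower and 24 were not called. Timp4, Adam8 and Mmp23 rose here as in tumours, joined by Adam28, a sheddase of leukocytes and epithelium, and Mmp17, a membrane-anchored MMP. Adamts8 was the lower gene at this age too. Over all genes 6.42% were called higher and 1.39% lower. The median log2 difference of the 30 genes was -0.04 against 0.01 over all genes, with a median size of 0.23 against 0.13. The 12-month and 7-month comparisons share no array, and 4 genes were called in the same direction in both, 3 higher and 1 lower, against 4.17% and 0.522% of all genes. In all, 10 of the 30 genes were called in at least 1 of the comparisons and 20 in neither, and of all genes 18.3% were called in at least 1.

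**Figure D1:**
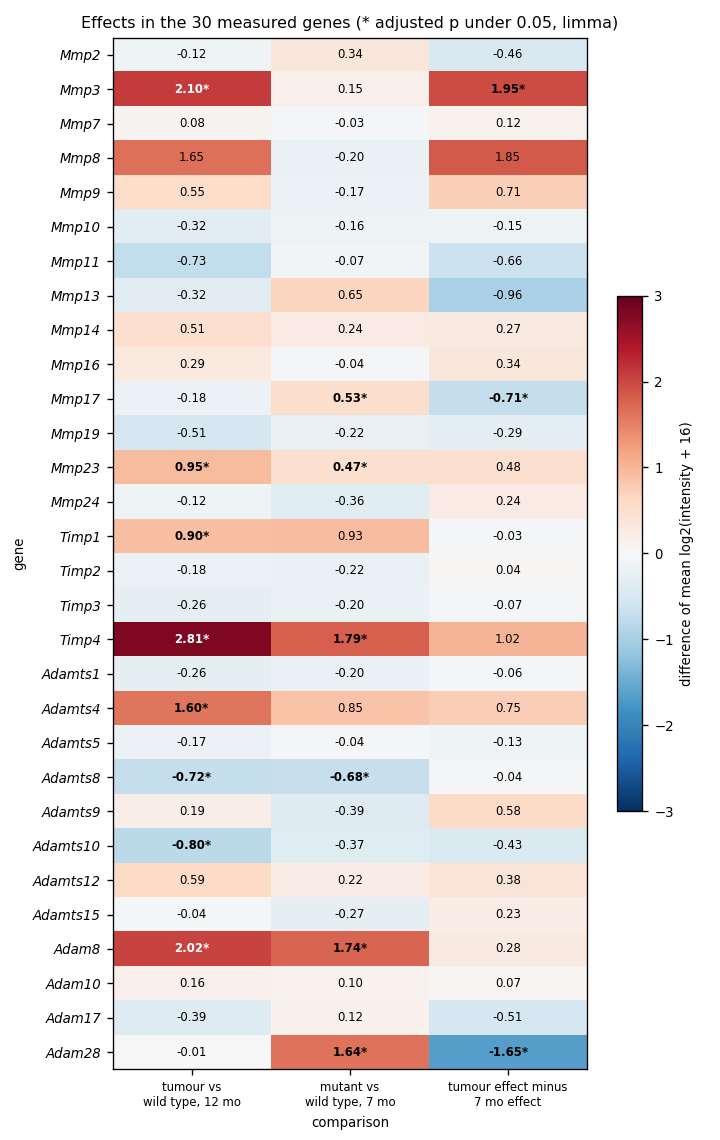
Differences of mean log2(intensity + 16) for the 30 measured genes (rows) in tumours against wild type lung at 12 months, in mutant against wild type lung at 7 months, and the first minus the second (columns); red is higher, blue is lower, and an asterisk marks an adjusted p under 0.05 in limma. Timp4, Adam8 and Mmp23 are marked higher in both comparisons with wild type, Adamts8 is marked lower in both, and Mmp3, Mmp17 and Adam28 are marked in the last column.

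The MMPs made up 14 of the measured genes. Of these, 2 were called higher in tumours and 2 in mutant lung at 7 months, and 0 were called lower in either. Mmp3, a secreted enzyme that cuts proteoglycans, laminin and fibronectin and activates other pro-MMPs, read 859, 1204 and 1782 in the 3 tumours and 219.8, 345 and 270.0 in wild type lung of 12 months. Every tumour was above every wild type array. The log2 difference was 2.10 ± 0.29 (SE, adjusted p = 0.0102), a fold of 4.29 on this scale. At 7 months Mmp3 read 243, 284 and 578 in mutant lung and 330.5, 212 and 409 in wild type lung. These groups overlapped, with mutant array 3 the highest of the 6, and the log2 difference was 0.15 ± 0.33 (SE, adjusted p = 0.831). The tumour effect exceeded the 7-month effect by 1.95 ± 0.47 (SE, adjusted p = 0.046). That difference lost its call when any of 7 of the 12 arrays was left out: tumour array 3, wild type arrays 1 and 3 of 12 months, mutant arrays 1 and 2, or wild type arrays 1 and 3 of 7 months, with adjusted p from 0.0924 to 0.107, and with an offset of 1 in place of 16 (adjusted p = 0.0711).

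Mmp23, a small protease held in the membrane, was the other MMP higher in tumours. It read 373, 291 and 456 in tumours and 156, 185 and 210.2 in wild type lung of 12 months, and the groups did not overlap. The log2 difference was 0.95 ± 0.18 (SE, adjusted p = 0.0225), and this call was lost without tumour array 1 or 3 or without any one of the 3 wild type arrays, with adjusted p from 0.0572 to 0.074. At 7 months it read 203, 225 and 219.5 in mutant and 132, 159 and 164 in wild type lung. Every mutant array was above every wild type array, and the mutant arrays lay close together. The log2 difference of 0.47 ± 0.09 (SE, adjusted p = 0.0157) was no longer called without mutant array 2 (adjusted p = 0.0617) or mutant array 3 (adjusted p = 0.0511), with only the compared groups fitted (adjusted p = 0.0588) or in a common fit of all 15 arrays (adjusted p = 0.0837). A second probe set of Mmp23 gave 0.99 (adjusted p = 0.0201) in tumours and 0.53 (adjusted p = 0.0814) at 7 months, with p adjusted over all probe sets.

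Mmp17, an MMP anchored to the membrane by a lipid, moved at 7 months. It read 104, 71.0 and 82.0 in mutant lung and 54.5, 52.8 and 54.1 in wild type lung where the 3 arrays lay close together. The groups did not overlap. The log2 difference was 0.53 ± 0.13 (SE, adjusted p = 0.0446), lost without mutant array 1 or 3, without any one of the 3 wild type arrays, and without either of 2 further arrays of 7 months that only enter the estimate of the spread, with adjusted p from 0.0623 to 0.106. It was also lost with an offset of 1, quantile normalization, median centring, array weights, only the compared groups fitted, or the replicate block, with adjusted p from 0.0517 to 0.0884, and it was 0.34 with an offset of 64. In tumours Mmp17 read 77.0, 87.2 and 88.2, against 86.1, 104 and 102 in wild type lung of 12 months. There the groups overlapped, and the log2 difference was -0.18 ± 0.10 (SE, adjusted p = 0.288). The tumour effect was below the 7-month effect by -0.71 ± 0.17 (SE, adjusted p = 0.046), a call kept in 3 of the 12 fits with an array left out, those without tumour array 2, wild type array 1 of 12 months or mutant array 2, with adjusted p from 0.074 to 0.103 in the other 9. An offset of 1, trend and robust fitting or array weights ended it too (adjusted p from 0.0515 to 0.0575), and with an offset of 64 it was -0.46.

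The collagenases and gelatinases did not pass the test at either age. Mmp8, the neutrophil collagenase, read 2809.9, 395 and 1108 in tumours and 200.2, 304 and 599 in wild type lung of 12 months. At 7 months it read 372, 249.6 and 1576 in mutant and 2143, 349 and 299 in wild type lung. In every group 1 array stood far above the other 2, the groups overlapped at both ages, and the log2 differences were 1.65 ± 0.73 (SE, adjusted p = 0.19) and -0.20 ± 0.84 (SE, adjusted p = 0.919). The array with the highest Mmp8 in tumours (array 1), in mutant lung (array 3) and in wild type lung of both ages (array 3 at 12 months, array 1 at 7 months) was also the one with the highest S100a8, a granule protein gene of neutrophils, at 10222, 6013, 4934 and 6757, respectively. The 11 measured neutrophil markers summed to 16947 to 30066 in tumours and 6941 to 12448 in wild type lung of 12 months, and to 6657 to 19854 and 4396 to 14906 at 7 months. Of these markers 1, Ltf, was called higher at both ages, and their part in the Mmp8 values was not tested.

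Mmp9, the gelatinase of neutrophils and macrophages, read 507, 281 and 217 in tumours and 179.8, 207 and 250.1 in wild type lung of 12 months, and differed by 0.55 ± 0.30 (SE, adjusted p = 0.282) with overlapping groups. Mmp2, the gelatinase of stromal cells, averaged 1825 ± 616 in tumours against 1969.7 ± 584 at 12 months and 1121 ± 141 in mutant against 893 ± 188 in wild type lung at 7 months (SD, n = 3). Mmp13, a collagenase, read 41.9, 46.7 and 84.1 in mutant lung at 7 months against 20.9, 35.8 and 33.5. Its groups did not overlap there, but the log2 difference of 0.65 ± 0.27 (SE, adjusted p = 0.194) was not called. In tumours Mmp13 lay below wild type lung, at 98.6, 98.7 and 112 against 115, 175 and 113, again without a call (adjusted p = 0.263). Mmp14, the membrane-type MMP that activates pro-Mmp2, read 772, 877 and 883 in tumours and 541, 507 and 732 in wild type lung of 12 months. All 3 tumours were above all 3 wild type arrays, and the log2 difference of 0.51 ± 0.15 (SE, adjusted p = 0.0737) missed the threshold. Without wild type array 3 it passed, with adjusted p = 0.0435.

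Of the other genes with an AP-1 motif before the start, Mmp7 (matrilysin, an epithelial MMP) and Mmp10 (stromelysin-2) did not follow Mmp3. Mmp7 averaged 174 ± 11.8 in tumours and 164 ± 27.3 in wild type lung of 12 months, and 21.1 ± 3.73 and 21.9 ± 4.03 in mutant and wild type lung of 7 months (SD, n = 3). Mmp10 averaged 120.4 ± 18.2 and 154 ± 15.7 at 12 months and 11.1 ± 3.46 and 14.5 ± 5.45 at 7 months, where its values lie at the floor of the array. The log2 differences lay between -0.32 and 0.08, and none was called. Of the 4 genes whose windows hold the motif, 1 was called in tumours and 0 at 7 months.

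Among the remaining MMPs, Mmp11 (stromelysin-3, known from tumour stroma) read 92.3, 257 and 106 in tumours and 256, 221 and 239 in wild type lung of 12 months. Tumour array 2 lay above every wild type array and the other 2 tumours far below them, and the log2 difference was -0.73 ± 0.34 (SE, adjusted p = 0.212). Without tumour array 2 the gene was called lower, with adjusted p = 0.00536. Mmp19, a secreted MMP, differed by -0.51 (adjusted p = 0.258) in tumours and -0.22 (adjusted p = 0.699) at 7 months, and the membrane types Mmp16 and Mmp24 by 0.29 (adjusted p = 0.122) and -0.12 (adjusted p = 0.702) in tumours. The group means of Mmp16 and Mmp24 were at most 32.6, near the offset of 16 added before taking logs, so a small change in these genes could not be measured.

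**Figure D2:**
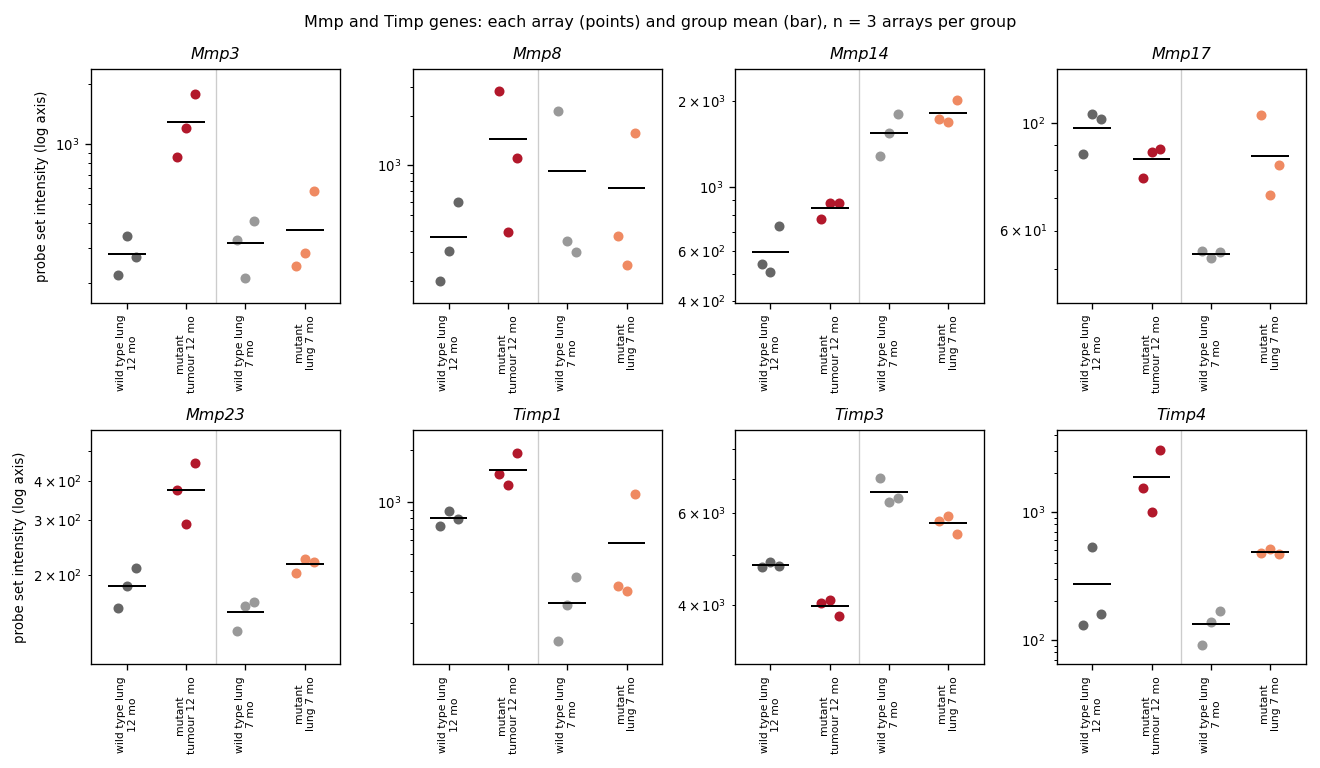
Probe set intensity (log axis) of 5 Mmp and 3 Timp genes on each array, in wild type lung and tumours at 12 months (left of the line) and in wild type and mutant lung at 7 months (right of it); points are arrays and bars are means of 3 arrays. The 3 tumours lie above the 3 wild type arrays in Mmp3, Mmp14, Mmp23, Timp1 and Timp4 and below them in Timp3, while in Mmp8 the groups overlap.

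All 4 TIMPs were measured. Timp4, a secreted inhibitor known for a narrow tissue range, was called higher at both ages. It read 1540.3, 992 and 3051 in tumours and 130.0, 534 and 158 in wild type lung of 12 months. The groups did not overlap, although wild type array 2 stood well above the other 2. The log2 difference was 2.81 ± 0.61 (SE, adjusted p = 0.0316), a fold of 7.01, and without tumour array 1 or 3 or wild type array 1 or 3 the adjusted p rose to 0.0873 to 0.104. Without wild type array 2 the log2 difference was 3.41, and against that array alone it was 1.62. At 7 months Timp4 read 481, 511 and 469 in mutant and 91.9, 138 and 168 in wild type lung. The mutant arrays lay close together, and all were far above the highest wild type array. Its log2 difference was 1.79 ± 0.17 (SE, adjusted p = 0.000433), a fold of 3.47, and stayed called in all 9 fits with an array left out. A second probe set gave 2.49 (adjusted p = 0.0337) in tumours and 0.63 (adjusted p = 0.0105) at 7 months. The tumour effect and the 7-month effect differed by 1.02 ± 0.64 (SE, adjusted p = 0.43), which was not called.

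Timp1, an inhibitor induced in many inflamed and injured tissues, read 1443, 1242 and 1908 in tumours and 725, 887 and 789.7 in wild type lung of 12 months. The groups did not overlap. On the log2 scale the difference was 0.90 ± 0.17 (SE, adjusted p = 0.0218), lost without tumour array 1 or any one of the wild type arrays, with adjusted p from 0.0529 to 0.0779, or in a common fit of all 15 arrays (adjusted p = 0.126). At 7 months Timp1 read 324, 304 and 1109 in mutant and 156, 252 and 367 in wild type lung. Mutant array 3 stood far above all others and the other 2 lay inside the wild type range, and the log2 difference was 0.93 ± 0.47 (SE, adjusted p = 0.287). Mutant array 3 was also the array with the highest Mmp3, Mmp8 and Adamts4 of its group.

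Timp3, an inhibitor bound to the matrix that also blocks ADAM and ADAMTS proteases, had small differences downward. It read 4025, 4092 and 3801 in tumours and 4734, 4827 and 4746 in wild type lung of 12 months. It read, at 7 months, 5805, 5944 and 5482 in mutant and 7023, 6323 and 6419.5 in wild type lung. The groups did not overlap at either age, and the log2 differences of -0.26 ± 0.07 (SE, adjusted p = 0.0626) and -0.20 ± 0.07 (SE, adjusted p = 0.135) were not called. Other Timp3 probe sets of lower intensity passed when all probe sets were tested, with -0.99 (adjusted p = 0.00958) and -0.61 (adjusted p = 0.013) in tumours and -0.31 (adjusted p = 0.0493) at 7 months. Timp2, the inhibitor that also takes part in activating pro-Mmp2, averaged 3915 ± 388 against 4437 ± 191 at 12 months and 5010.3 ± 351 against 5849 ± 348 at 7 months (SD, n = 3), with log2 differences of -0.18 (adjusted p = 0.267) and -0.22 (adjusted p = 0.116). In bulk tissue fewer cells of a type and less RNA per cell cannot be told apart, and this holds for every lower or higher level given here.

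The 4 ADAM genes were all measured. Adam8, a sheddase known from leukocytes and from tumours, read 3478, 1995 and 3388 in tumours and 548, 799.5 and 757 in wild type lung of 12 months. Every tumour was far above the highest wild type array. This gave a log2 difference of 2.02 ± 0.26 (SE, adjusted p = 0.00892), a fold of 4.07. In 7-month lung it read 955, 1172 and 1312 in mutant and 396, 277 and 323 in wild type lung. These groups did not overlap either, and the log2 difference was 1.74 ± 0.15 (SE, adjusted p = 0.000277), a fold of 3.35. Both calls stayed in every fit with an array left out, and the difference between the ages, 0.28 ± 0.30 (SE, adjusted p = 0.685), was not called.

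Adam28 was measured high at 12 months and low at 7 months in wild type lung. It read, at 7 months, 125, 169 and 179.5 in mutant and 33.1, 34.0 and 52.3 in wild type lung. All mutant arrays were above all wild type arrays, and the log2 difference was 1.64 ± 0.16 (SE, adjusted p = 0.00048), a fold of 3.12. At 12 months it read 930.0, 1189 and 563 in tumours and 831, 814 and 936 in wild type lung. The wild type arrays fell inside the range of the tumours, and the log2 difference was -0.01 ± 0.26 (SE, adjusted p = 0.991). The tumour effect was below the 7-month effect by -1.65 ± 0.32 (SE, adjusted p = 0.0164), a call kept in all 12 fits with an array left out. A second, dimmer probe set of Adam28, with a mean of 31.9 over all arrays, gave 0.15 (adjusted p = 0.671) at 7 months and 0.12 (adjusted p = 0.857) for the difference. With the mean of both probe sets the 7-month difference was 0.90 (adjusted p = 0.0034) and the difference of effects -0.77 (adjusted p = 0.0831), so the latter was no longer called. With an offset of 64 these were 1.09 and -1.09, both called.

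Adam10 and Adam17, the broadly expressed sheddases of Notch, of ErbB ligands and of tumour necrosis factor, did not pass the test. Adam10 read 3919.6, 3823 and 3833 in tumours and 3402, 3332 and 3597 in wild type lung of 12 months, without overlap and with a log2 difference of 0.16 ± 0.07 (SE, adjusted p = 0.195). Adam17 read 1246, 1526 and 1400.0 in tumours and 1734, 1695 and 2065 in wild type lung. All tumours were below all wild type arrays, and the log2 difference of -0.39 ± 0.12 (SE, adjusted p = 0.0784) missed the threshold. The other 2 Adam17 probe sets passed when all probe sets were tested, at -0.60 (adjusted p = 0.0216) and -0.62 (adjusted p = 0.0411). At 7 months the differences were 0.10 (adjusted p = 0.398) for Adam10 and 0.12 (adjusted p = 0.423) for Adam17.

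**Figure D3:**
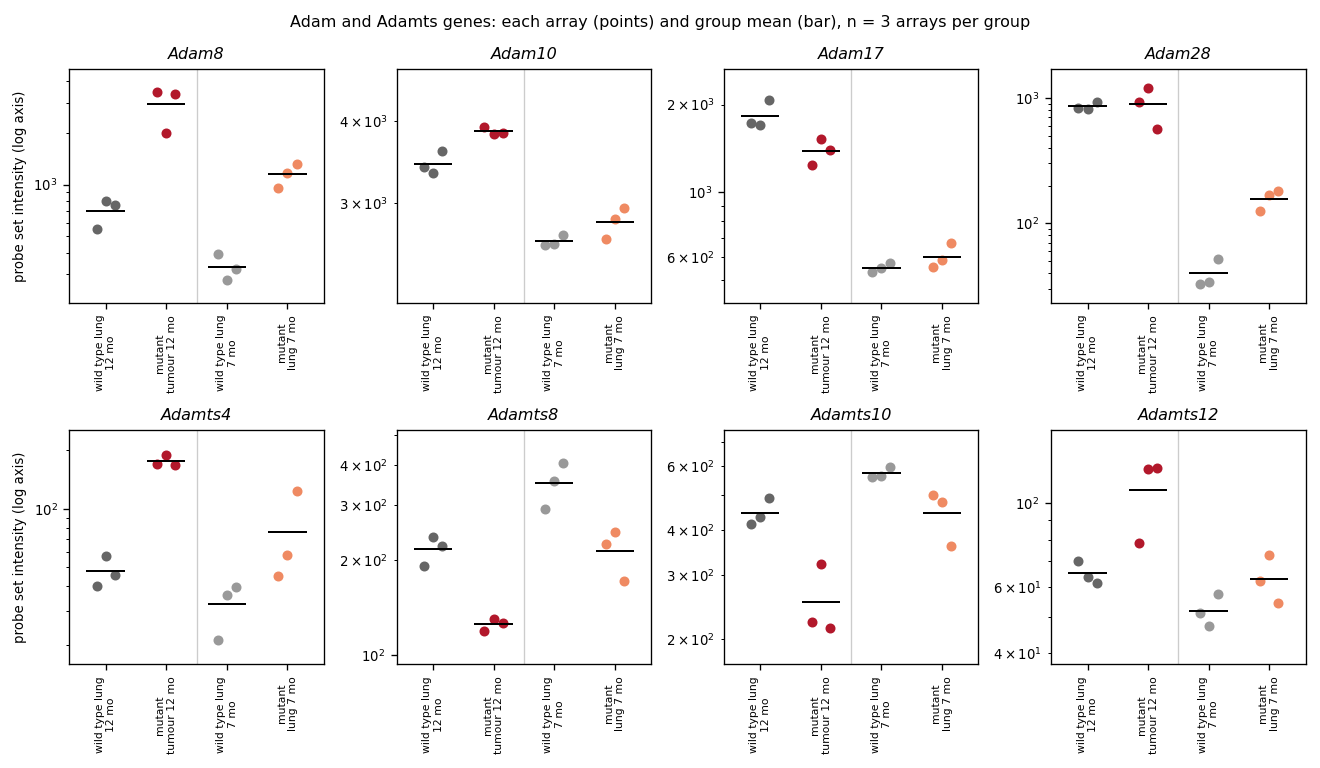
Probe set intensity (log axis) of the 4 Adam genes and 4 Adamts genes on each array, in wild type lung and tumours at 12 months (left of the line) and in wild type and mutant lung at 7 months (right of it); points are arrays and bars are means of 3 arrays. Adam8 is higher and Adamts8 lower at both ages without overlap, and Adam28 is separated at 7 months but overlaps at 12 months.

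Of the ADAMTS genes, 8 of 9 were measured. Adamts4, an aggrecanase that cuts the large proteoglycans aggrecan, versican and brevican, read 171, 190.3 and 169 in tumours and 40.1, 57.2 and 45.8 in wild type lung of 12 months. The tumours lay close together and far above the wild type arrays. Its log2 difference was 1.60 ± 0.12 (SE, adjusted p = 0.00364), a fold of 3.04, and stayed called in all 6 fits with an array left out. In 7-month lung it read 45.1, 58.3 and 124 in mutant and 21.2, 35.9 and 39.8 in wild type lung. The groups did not overlap, but mutant array 3 stood well above the others, and the log2 difference of 0.85 ± 0.29 (SE, adjusted p = 0.114) was not called. A second probe set, with a mean of 10.7 over all arrays, gave 0.65 (adjusted p = 0.0184) in tumours.

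Adamts8, a protease with a long-known high level in lung, read 119, 129.8 and 126 in tumours and 191, 237 and 222 in wild type lung of 12 months. Every tumour was below every wild type array. On the log2 scale the difference was -0.72 ± 0.10 (SE, adjusted p = 0.0103), and it stayed called in all 6 fits with an array left out. It read, at 7 months, 224, 245 and 171 in mutant and 291, 357 and 406 in wild type lung. Again the groups did not overlap, and the log2 difference was -0.68 ± 0.14 (SE, adjusted p = 0.0243), lost without mutant array 1 or 3 or wild type array 2 or 3, with adjusted p from 0.0512 to 0.0691. Fitting only the compared groups (adjusted p = 0.0883) or adding the replicate block (adjusted p = 0.0592) ended it as well. The 2 effects differed by -0.04 ± 0.19 (SE, adjusted p = 0.942). Adamts10, a protease that binds fibrillin, read 223, 322 and 215 in tumours and 414, 435 and 489.6 in wild type lung of 12 months, without overlap. Its log2 difference of -0.80 ± 0.17 (SE, adjusted p = 0.0278) was lost without tumour array 1 or 3 or any one of the wild type arrays, with adjusted p from 0.0711 to 0.0947. At 7 months the difference was -0.37 ± 0.12 (SE, adjusted p = 0.114), with all mutant arrays below all wild type arrays.

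Markers of endothelium moved with these lower genes. Of 14 measured endothelial markers, 9 were called lower in tumours, among them Pecam1 at -0.98 (adjusted p = 0.018), and 0 higher, and their summed intensity was 10685 to 17020.0 in tumours against 24422 to 27513 in wild type lung. At 7 months 3 were called lower and 0 higher, with sums of 26523 to 32976 in mutant and 38043 to 38209 in wild type lung. The part of this shift in Adamts8, Adamts10 and Timp3 was not tested.

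The other ADAMTS genes were not called against wild type lung. Adamts1, which cuts versican and aggrecan and is known from blood vessels, averaged 1298 ± 328 in tumours and 1526 ± 52.0 in wild type lung of 12 months (SD, n = 3), with a log2 difference of -0.26 (adjusted p = 0.375). Adamts9, a versican-cutting protease, read 764, 766 and 788 in wild type lung of 7 months and 444, 516 and 868 in mutant lung, where array 3 lay above the wild type range and the other 2 arrays below it. Its log2 difference was -0.39 ± 0.21 (SE, adjusted p = 0.3), and without mutant array 3 the gene was called lower (adjusted p = 0.00447). Adamts12 read 78.2, 123 and 124 in tumours and 70.2, 63.6 and 61.4 in wild type lung of 12 months, without overlap, and its log2 difference of 0.59 ± 0.17 (SE, adjusted p = 0.0652) missed the threshold. Without tumour array 1 it passed, with adjusted p = 0.0279. Adamts5, the aggrecanase closest to Adamts4 in function, differed by -0.17 (adjusted p = 0.614) in tumours and -0.04 (adjusted p = 0.825) at 7 months, and Adamts15 by -0.04 (adjusted p = 0.923) and -0.27 (adjusted p = 0.419).

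The tumour calls were set against the sex of the animals, since 2 of the 3 wild type arrays of 12 months carried Xist and no tumour did. Against wild type array 2 as the only wild type array at 12 months, no log2 difference of the genes called in tumours changed sign. Timp1 differed by 0.75 there and Adamts10 by -0.765. The log2 difference of Timp4 was smaller here, at 1.62 against 2.81 with all 3 wild type arrays. Pooling the spread over all 15 arrays was an alternative chosen after seeing the data. It assumes that the lone array varies like the others, so its calls are not listed here and enter only the counts over alternatives given at the end. With sex as a term in the fit of the 6 arrays of 12 months, which gives the same log2 differences as wild type array 2 alone, 0 of the 30 genes were called by limma, against 6 higher and 2 lower without it, and 1 of 18193 genes was called in all. That fit rests on 1 wild type array of the tumours' sex, so it cannot decide whether the calls depend on sex. The log2 differences were then 1.78 (adjusted p = 0.15) for Mmp3, 1.82 (adjusted p = 0.138) for Adam8, 1.40 (adjusted p = 0.0843) for Adamts4, 0.94 (adjusted p = 0.209) for Mmp23 and -0.84 (adjusted p = 0.11) for Adamts8. Without the term they were 2.10, 2.02, 1.60, 0.95 and -0.72. Leaving out wild type array 1 alone took the higher calls from 6 to 3, keeping Mmp3, Adamts4 and Adam8. Over all genes the higher calls fell from 1679 to 715 in that fit.

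The difference between both effects was called for 3 of the 30 genes, above for Mmp3 and below for Mmp17 and Adam28, and over all genes 1.75% were called above and 1.41% below. At an unadjusted p below 0.05 these counts were 3 above and 4 below. The share of all genes at that looser threshold was not counted, so nothing is read from these counts. The median of the difference was 0.05 over the 30 genes and 0.00 over all genes. A tumour and a whole lung are also different kinds of sample. The groups differ in Xist and Eif2s3y as well, and each age is a set of arrays of its own. Age, stage, kind of tissue, sex and array set therefore cannot be told apart in this difference.

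Related genes outside the set were read from lists of known family members, regulators and substrates. Of 4 other measured MMPs, 0 were called at either age by limma. Mmp12, the macrophage elastase, read 1650.4, 920.4 and 893 in tumours and 2371, 2139 and 5972 in wild type lung of 12 months, without overlap (adjusted p = 0.0748), while 7 of 15 measured macrophage markers were called lower in tumours and 0 higher, with sums of 30361 to 40335 against 52150.0 to 60207. Of 23 other ADAM genes, 3 were called higher in tumours and 2 at 7 months, and 0 lower at either age. These were Adam18 at 0.49 (adjusted p = 0.0192), Adam12 at 0.86 (adjusted p = 0.0244) and Adam9 at 0.34 (adjusted p = 0.0449) in tumours, and Adamdec1 at 1.16 (adjusted p = 0.000543) and Adam19 at 0.41 (adjusted p = 0.00703) at 7 months. Of 7 other ADAMTS genes 1 was called, Adamts20, which was higher at both ages, at 1.88 (adjusted p = 0.00954) in tumours and 1.10 (adjusted p = 0.014) in mutant lung. Of 7 ADAMTS-like genes, whose products resemble the proteases without the catalytic part, 1 was lower in tumours, Adamtsl2 at -1.30 (adjusted p = 0.0239).

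Among 25 measured activators and inhibitors of these proteases, 5 were higher and 5 lower in tumours, and 2 were higher and 3 lower at 7 months. A2m, the plasma inhibitor that traps proteases of all classes, read 565, 373 and 739.9 in tumours and 70.4, 82.9 and 107 in wild type lung of 12 months, and differed by 2.45 (adjusted p = 0.00599). Bsg, a surface glycoprotein known to induce MMPs in neighbouring cells, was higher at both ages, by 0.75 (adjusted p = 0.00795) and 0.51 (adjusted p = 0.00632). Reck, a membrane-bound inhibitor of Mmp2, Mmp9 and Mmp14, was lower at both, by -0.78 (adjusted p = 0.0128) and -0.37 (adjusted p = 0.0441). It read 609, 804 and 638 in tumours against 1194, 1207 and 1137 in wild type lung of 12 months, with no overlap. Serpinb2, an inhibitor of plasminogen activators, was higher in tumours by 2.40 (adjusted p = 0.0107), and Plat, a plasminogen activator, was lower in mutant lung at 7 months by -0.55 (adjusted p = 0.00896).

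Of 25 measured matrix proteins cut by these proteases, 6 were higher and 1 lower in tumours, and 1 was higher and 0 lower at 7 months. The higher ones in tumours included the proteoglycans Lum at 2.36 (adjusted p = 0.0107), Dcn at 0.84 (adjusted p = 0.011) and Vcan at 1.69 (adjusted p = 0.0128), and the collagen Col17a1 at 2.02 (adjusted p = 0.0133). Bcan, a proteoglycan best known from brain, was higher at both ages, and read 575, 665 and 613 in mutant and 230.2, 119.9 and 209 in wild type lung at 7 months, with a log2 difference of 1.69 (adjusted p = 0.00115). Of 28 measured substrates of ADAM sheddases, 3 were higher and 4 lower in tumours, with Csf1 at -0.85 (adjusted p = 0.00669) and Jam3 at 1.15 (adjusted p = 0.00973), and 2 were higher and 1 lower at 7 months. Of 16 cathepsins and elastases, 5 were lower and 0 higher in tumours, led by Ctsz at -0.95 (adjusted p = 0.00954) and Ctsk at -1.75 (adjusted p = 0.012), and 1 was higher and 0 lower at 7 months. Of 9 meprins, astacins and lysyl oxidases, 0 were called at either age.

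Markers of other cell types moved as well. All 10 measured markers of ciliated cells were called higher at both ages, with sums of 10655 to 16868 in tumours against 4383 to 5919.8, and 6010.3 to 7249 in mutant against 2839 to 2921 in wild type lung at 7 months. Of 8 club cell markers, 2 were higher in tumours and 5 at 7 months, and of 12 basal and squamous markers 7 were higher in tumours and 3 at 7 months, with 0 lower in either list. Basal and squamous sums were 3222 to 6910.0 in tumours against 529 to 539.8, and 753 to 1405 in mutant against 502 to 577 in wild type lung at 7 months, and mutant lung did not overlap wild type lung. Of 14 fibroblast markers 3 were higher and 2 lower in tumours, and 0 were called at 7 months. Of 7 mesothelial markers 4 were higher and 1 lower in tumours, and 1 was higher and 2 lower at 7 months. Among 8 alveolar type 2 markers 0 were called at either age. Smooth muscle had 0 of 9 called in tumours and 1 lower at 7 months, T and NK cells 1 of 9 lower in tumours and 0 at 7 months, and mast cells 2 of 8 higher and 1 lower in tumours and 1 higher at 7 months. The part of these shifts in the higher Timp4, Adam8, Adam28, Mmp23 and Mmp3 was not tested.

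Levels in wild type lung also differed between the ages. Of the 30 genes, 14 had every 12-month array above every 7-month array, 7 had every array below, and 9 overlapped. Over all 18193 genes the shares were 30.5% and 18.2%, so such separation was common on these arrays. Adam28 averaged 860.2 at 12 months and 39.8 at 7 months. Of the MMPs of chromosome 9, Mmp7 averaged 164 and 21.9 at 12 and 7 months, Mmp10 154 and 14.5 and Mmp13 134 and 30.1, while Mmp3 overlapped. The 7-month values of Mmp7, Mmp10 and Mmp13 lie near the floor of the array, so no fold is given for them. Adam17 was higher at 12 months by a ratio of 3.31 and Timp1 by 3.10. In the other direction Mmp14 was lower at 12 months by a ratio of 2.60, and Timp2, Timp3, Adamts1, Adamts8, Adamts9 and Adamts10 were lower too. The arrays of each age form a set of their own, so age and array set cannot be told apart, and no test was made between them.

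**Figure D4:**
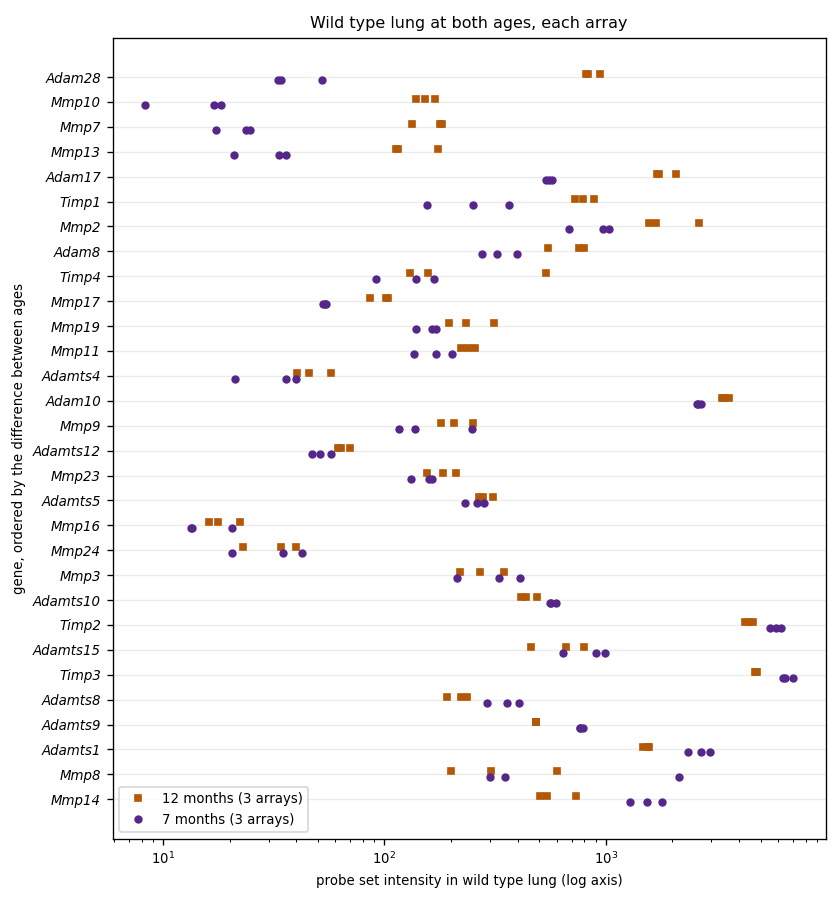
Probe set intensity (log axis) of the 30 measured genes in wild type lung, with the 3 arrays of 12 months as squares and the 3 arrays of 7 months as circles, ordered by the difference of mean log2(intensity + 16). Adam28, Mmp10, Mmp7, Mmp13, Adam17 and Timp1 lie to the right at 12 months without overlap, and Mmp14 lies to the left.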

How the data were processed

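RNA of 15 arrays was measured. RNA was taken up in TRIzol, purified with an RNeasy kit and labelled by the Affymetrix 3′ IVT protocol, which starts at the poly(A) tail, per the labels' protocols. The values deposited by the authors are linear probe set intensities, 1 for each of 45101 probe sets per array, whose background correction, summarization and scaling are not given in the sources used here. The platform annotation named 34958 probe sets with 1 symbol, 932 with several and 9211 were not listed; the latter 2 kinds were left out. Gene numbers were matched to RefSeq (GRCm38.p6), where 34741 matched and 0 changed. The number of arrays limits the precision, and 17.1% to 21.1% of values per array lay under 16.

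Tests were run on log2(intensity + 16) with limma 3.58.1 in R 4.3.3 (lmFit, eBayes, two-sided), adjusted by Benjamini-Hochberg over 18193 genes, so folds understate the changes of dim genes. The 12-month comparison used its 6 arrays, the 7-month comparison 9 and the difference of effects 15. Of these, 3 arrays of 7 months are of another group, not reported here, and enter only the choice of probe sets and the estimate of the spread. The members and the lists were chosen with earlier results of these data known. All members are accounted for, and array values are given for those called against wild type lung; from each list, up to 4 called genes with the smallest adjusted p are named. Mmp12 and others named without a call were chosen after their values were seen. Alternatives were other offsets (1, 64), leaving out genes with a mean log2 under 6, quantile normalization, median centring, trend and robust fits, array weights, the mean of all probe sets, no x_at probe sets, other sets of arrays, sex or replicate number as a block, and leaving out each array. The code was tested on simulated arrays.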

Additional observations from a re-analysis of the deposited data

Results flagged for a closer look

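The effect of tumour against wild type lung at 12 months differed from the effect of mutant against wild type lung at 7 months, by limma's test of the difference, in 3 of the 30 genes. Mmp3 differed by 1.95 on the log2 scale (adjusted p = 0.046). Mmp17 differed by -0.71 (adjusted p = 0.046), with opposite signs of the effect at the 2 ages. Adam28 differed by -1.65 (adjusted p = 0.0164), and its wild type level averaged 860.2 at 12 months and 39.8 at 7 months. Groups of 3 arrays were not tested for single outlying arrays.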

How the results depend on the processing

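No call among the 30 genes changed direction under any alternative run. In tumours, 2 lower calls became 4 with trend and robust fitting, with the mean of all probe sets and with a common fit of all 15 arrays, where Timp3 and Adam17 were added. With sex as a block, which is the same fit as wild type of the tumours' sex alone among the 6 arrays and is counted once here, 0 were higher and 0 lower. Leaving out 1 array gave 3 to 6 higher and 1 to 4 lower, with 1 lower (Adamts8) without tumour array 1 or 3 or any wild type array. Adam8, Mmp3, Adamts4 and Adamts8 were called in 17 of 18 alternatives, Timp4 in 13, Mmp23 and Adamts10 in 12 and Timp1 in 11. The 18 include the fit against wild type array 2 alone with pooled spread, which was chosen after seeing the data. At 7 months the lower calls became 3 with trend and robust fitting, and fitting only the groups compared gave 3 higher and 0 lower. Leaving out 1 array gave 3 to 5 higher (3 without mutant array 3) and 0 to 1 lower (0 without mutant array 1 or wild type array 2 or 3). Adam8, Adam28 and Timp4 were called in all 21 alternatives, Mmp23 in 17, Adamts8 in 15 and Mmp17 in 8. For the difference of effects, an offset of 1 gave 0 above and 1 below, array weights gave 1 below, and leaving out 1 array gave 0 to 3 above and 1 to 5 below, with 5 without tumour array 2. Where no cause follows from the setting itself, the cause was not tested. Same-numbered arrays of 7 months deviated together by correlations of only -0.128 to 0.161, so the numbers do not pair the arrays. With the replicate block 4 genes were higher and 0 lower. Dim genes such as Mmp10, Mmp16 and Mmp24 lie near the floor, which limits what could be seen in them.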
